A study of Rattus norvegicus with 2 samples.

Results

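miR-203 and miR-205 are the microRNAs (miRNAs) best known from the keratinocytes of stratified epithelium, the cell layers that cover the tongue. They were taken from the array by name, as all spots that were not controls and were named rno-miR-203 or rno-miR-205, and these 2 are among the 350 rat miRNAs on the array. The study set squamous cell carcinoma of the rat tongue against normal rat tongue. In the experimental arm, male Sprague-Dawley rats of 6 to 7 weeks at the start were given 4NQO, a carcinogen of the oral epithelium, at 0.02 g/l, and the control arm had distilled water; each arm counted 20 rats. Tissue was taken at the end of week 36, and RNA came from 7 tumours and 7 normal tongue tissues. The data are 1 array labelled as tumour and 1 labelled as normal, called the tumour array and the normal array by those labels, both read in 1 colour on 1 slide, and the labels do not state if the RNA of an array was pooled over animals. A single array stood for each group, so replicates were lacking and no test was made. Errors are spreads between the spots of an array, which show how well a probe was read and not how tumours or tongues vary.

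In mouse skin, miR-203 is low in the basal layer and appears as keratinocytes leave it and differentiate, where it represses p63, the transcription factor that sustains basal keratinocytes. miR-205 is found in the basal layer and its progenitors, and in mice and in human cells it shares with the miR-200 family the repression of the ZEB factors, which drive the loss of epithelial character. In mouse skin the pair thus marks differentiating and basal cells of the same epithelium. The arrays here do not place either miRNA in a layer of rat tongue or tumour. In tissue RNA such as this, fewer cells of a type and less RNA per cell cannot be told apart.

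The mature sequences are shown with the seed, bases 2 to 8, in capitals, since the seed sets which messenger RNAs a miRNA pairs with. They come from RefSeq, build GRCr8, an assembly newer than build rn4 of the array's design. Both members were matched to RefSeq by their probes, and the array's miR-203 is the miRNA that RefSeq names miR-203a-3p.
miR-203: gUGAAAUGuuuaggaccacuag
miR-205: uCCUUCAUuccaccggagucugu
The mature miR-203 has 22 bases and lies at chr6:137020756-137020777 on the plus strand, in the Mir203 gene. The mature miR-205 has 23 bases and lies at chr13:107564588-107564610 on the minus strand, in the Mir205 gene. The seeds differ, the longest run of bases that the 2 miRNAs share is 4, and none of the other mature rat miRNAs among the 724 in the table has either seed.

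In the hairpins from which each miRNA is cut, shown here because they place it on an arm, the mature miRNA is in capitals. It starts at base 52 of 97 in miR-203, on the 3′ arm, and at base 33 of 108 in miR-205, on the 5′ arm.
Mir203 hairpin: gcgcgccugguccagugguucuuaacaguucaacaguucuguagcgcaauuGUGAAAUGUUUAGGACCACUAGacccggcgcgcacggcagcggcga
Mir205 hairpin: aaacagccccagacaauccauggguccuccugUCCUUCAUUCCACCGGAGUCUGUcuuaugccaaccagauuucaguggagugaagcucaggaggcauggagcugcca

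Each miRNA was read by 2 nested probes that differ by 1 base at the 3′ end, shown in capitals in the longer probe, and each probe was printed as 10 spots. They are shown because the values below rest on them.
miR-203 longer probe: ctagtggtcctaaacatT
miR-203 shorter probe: ctagtggtcctaaacat
miR-205 longer probe: cagactccggtggaaT
miR-205 shorter probe: cagactccggtggaa
The miR-203 probes, of 18 and 17 bases, pair with the miRNA from base 5 or base 6 to its last base. The miR-205 probes, of 16 and 15 bases, pair from base 7 or base 8 to base 22. The probes therefore read the 3′ part of each miRNA and at most 4 bases of a seed. The longest stretch of a probe that pairs with any other mature rat miRNA in the RefSeq table was 7 bases.

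Both arrays held the miRNAs of tongue muscle and of epithelium. On the tumour array 104 miRNAs were detected, against 88 on the normal array, and 85 were measured on both by a shared probe. Signals were divided by each array's 75th percentile, taken over the 140 probes that both arrays detected, so that a level of 1 equals that percentile. The percentile was 525.6 intensity units on the tumour array and 277.5 on the normal array, a log2 ratio of 0.92 that unscaled values include. Of 7 skeletal muscle miRNAs 5 were measured, all of them higher on the tumour array, with log2 ratios of 0.91 to 3.72. Of all 85 miRNAs, 53 had ratios below 0. At least 2-fold higher were 4 of the 5, beside 11 or 12.9% of all 85. The summed level of the 5 was 14.7 on the tumour array and 2.51 on the normal array, while the remaining members, miR-208 and miR-499, were detected on neither. The muscle list gave 28.2% of the summed miRNA signal on the tumour array and 4.46% on the normal array. miR-21 and miR-31, which reports on human oral carcinoma commonly give as raised, were lower on the tumour array, by 9.60-fold for miR-21 and 15.2-fold for miR-31. Each direction below assumes that the labels are right. The part of muscle content and of the labels in the values below was not tested.

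The spots of miR-203 were brighter on the tumour array before scaling. Its longer probe ran from 835 to 902 intensity units on the tumour array, with a median of 882 over 9 spots, and from 521 to 557 on the normal array, with a median of 542 over 10 spots. Its shorter probe ran from 326 to 360 with a median of 338 on the tumour array, and from 198 to 226 with a median of 212 on the normal array. The spot ranges of the arrays did not overlap for either probe. How many other probes separate in this way was not counted. The spot left out of the longer probe on the tumour array, which the array software marked as an outlier, had 327 intensity units.

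The spots of miR-205 lay close together on the 2 arrays before scaling. Its longer probe ran from 1036 to 1160 intensity units with a median of 1115 on the tumour array, and from 1056 to 1267 with a median of 1207 on the normal array. Its shorter probe ran from 531 to 592 with a median of 570 on the tumour array, and from 534 to 669 with a median of 639 on the normal array. Here the spot ranges overlapped for both probes. The coefficients of variation of the 2 probes over spots were 3.55% and 3.59% on the tumour array and 5.92% and 7.29% on the normal array. All spots of both miRNAs were well above background and none was saturated, with negative control spots at a mean of 1.21 intensity units on the tumour array and 2.64 on the normal array.

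**Figure D1:**
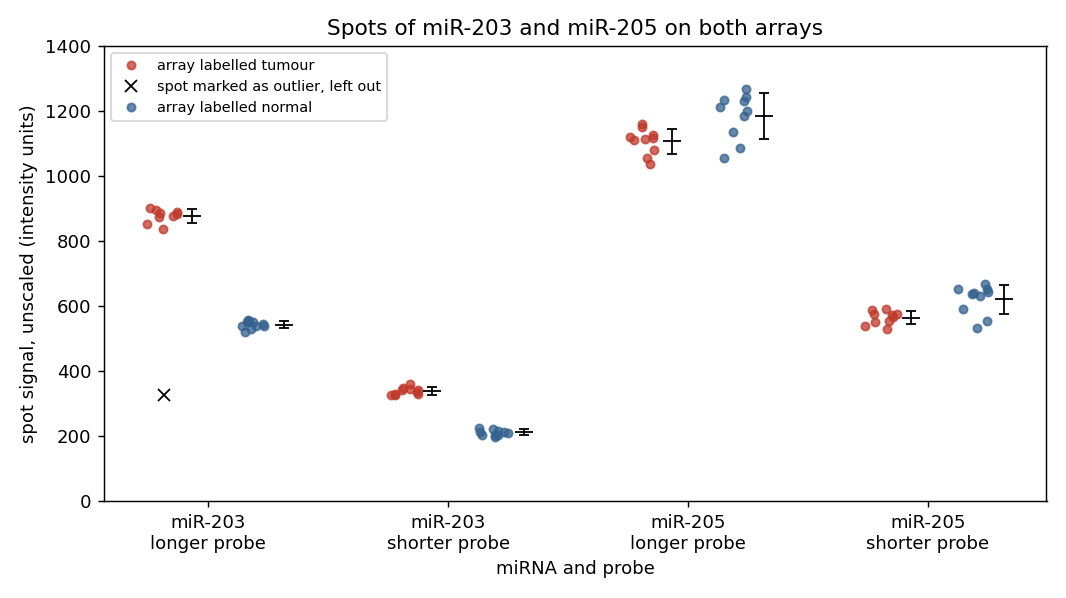
Unscaled signal of every spot of the miR-203 and miR-205 probes, in intensity units, on the tumour array (red) and the normal array (blue). Bars are the mean and SD over spots, and the cross is the spot of 327 units that was left out; the arrays separate for miR-203 and overlap for miR-205.

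After scaling, miR-205 was 2.06-fold lower on the tumour array and miR-203 was 1.18-fold lower. The scaled level of miR-205 was 1.50 on the tumour array and 3.09 on the normal array, a log2 ratio of -1.04 (spot SE 0.024). The scaled level of miR-203 was 1.04 on the tumour array and 1.22 on the normal array, a log2 ratio of -0.24 (spot SE 0.014). The scaled spot ranges of the arrays did not overlap for any of the 4 probes. The share of all probes that separate so was not counted, so the separation cannot be called particular to the pair. Only miR-205 reached the size rule of 2-fold. Of the 85 miRNAs measured on both arrays, 19 or 22.4% were at least 2-fold lower on the tumour array, 11 or 12.9% were at least 2-fold higher, and 30 or 35.3% were at least 2-fold apart in either direction.

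The direction for miR-203 rested on the scaling, and so did the call for miR-205. Without scaling the log2 ratio of miR-203 was 0.69 and that of miR-205 was -0.12. miR-203 was also above 0 when the 75th percentile was taken over all probes (0.25), without the muscle miRNAs (0.078), or replaced by the array's positive control features (0.68). miR-205 stayed below 0 in those settings, at -0.55, -0.73 and -0.13, and under 2-fold in each. It was also under 2-fold with scaling on the median of probes (-0.98) and with normexp background correction (-0.91). The deposited values of miR-205 gave -0.11 as they stand. They gave -0.83 after division by each array's 75th percentile over miRNAs, under 2-fold both ways. In odd-numbered spots miR-205 was at -0.98, and in even-numbered spots at -1.14, so its side of the 2-fold line also depended on which spots were read.

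The 2 probes of a miRNA gave nearly the same ratio. For miR-203 the scaled log2 ratio was -0.23 with the longer probe and -0.24 with the shorter one. For miR-205 it was -1.02 with the longer probe and -1.06 with the shorter one. The brightness of the probes differed much more than their ratios. The longer probe of miR-203 was 2.59 times as bright as the shorter one on the tumour array and 2.56 times on the normal array. For miR-205 these factors were 1.96 on the tumour array and 1.91 on the normal array.

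Relative to each other, miR-203 was higher against miR-205 on the tumour array than on the normal array. Within the tumour array the signal of miR-203 was 0.690 times that of miR-205, a log2 difference of -0.54 (spot SE 0.015). Within the normal array it was 0.395 times that of miR-205, a log2 difference of -1.34 (spot SE 0.024). Probes differ in brightness at equal RNA, so these factors do not say which miRNA was the more abundant. With the shorter probe of miR-203 left out, the log2 difference within the tumour array turned to 0.15, while that within the normal array was -0.66.

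In the change of that balance between the arrays, the brightness of a probe and any factor common to an array cancel. The log2 ratio of miR-203 exceeded that of miR-205 by 0.80 (spot SE 0.028), which is 1.75-fold. The 4 combinations of a miR-203 probe with a miR-205 probe gave 0.78, 0.79, 0.82 and 0.83. Of the 23 other ways of processing the arrays, 9 gave the same difference because they act on both miRNAs alike or leave their probes as they are. The 14 that could change it gave 13 distinct values, between 0.71 with normexp background correction and 0.86 in even-numbered spots. The array software's own gene signal gave 0.80 with an error of 0.22 on the log2 scale, from its error estimates for each array. That gene signal was 807 ± 62.5 intensity units for miR-203 on the tumour array and 500.2 ± 38.8 on the normal array. For miR-205 it was 1109 ± 82.6 on the tumour array and 1199 ± 89.0 on the normal array, each with the software's error. Without a second array of either group, the difference cannot be set against the variation between animals.

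**Figure D2:**
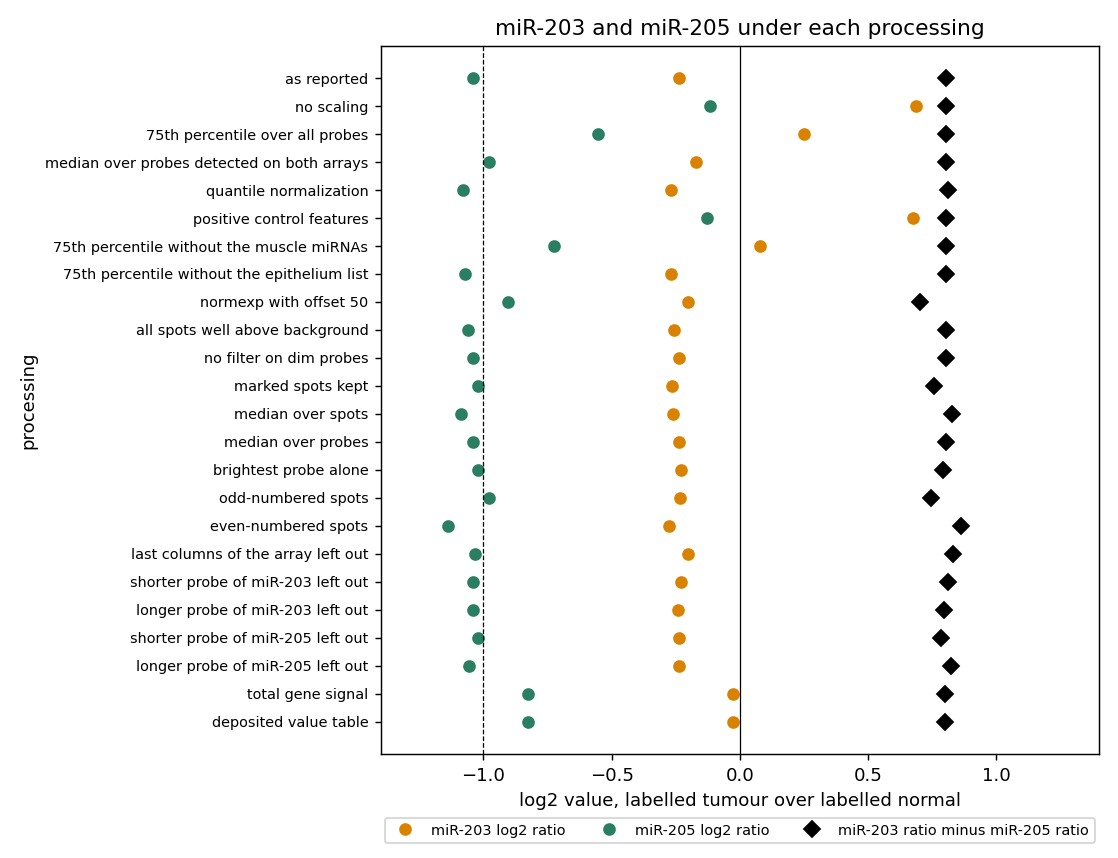
Log2 ratios, labelled tumour over labelled normal, of miR-203 (orange) and miR-205 (green), and their difference (black), as reported and under each other processing. The difference lies between 0.71 and 0.86, and scaling by a common factor cannot move it, while miR-203 lies on either side of 0 and miR-205 on either side of the dashed line at -1.

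Both miRNAs were among the brighter ones on each array. miR-205 had the signal of rank 11 among the 104 miRNAs detected on the tumour array, next to let-7f above and miR-29a below. On the normal array it had rank 2 of 88, between miR-21, at a level of 13.0, and miR-23a, at 2.29. miR-203 had rank 18 on the tumour array, between miR-27a and miR-29b, and rank 12 on the normal array, between let-7f and miR-16. Ranks compare signals of different probes and are given as a description. As a share of the summed software signal of all miRNAs, miR-205 had 2.39% on the tumour array and 4.74% on the normal array, and miR-203 had 1.74% on the tumour array and 1.98% on the normal array. With the muscle list taken out of the sum, the shares of miR-205 were 3.33% on the tumour array and 4.96% on the normal array. Those of miR-203 were then 2.42% on the tumour array and 2.07% on the normal array, the opposite order from the shares with muscle included.

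Against the other epithelial miRNAs the pair stood at different places. The epithelium list has 10 members on the array, of which 9 were measured on both arrays and miR-182, of the cluster of miR-183, was detected on the normal array alone. After scaling all 9 had log2 ratios below 0, beside 53 of all 85. Of the 9, 4 were 2-fold or more lower on the tumour array (miR-141, miR-96, miR-205 and miR-183), beside 19 or 22.4% of all 85. The list's median was -0.90, against -0.46 over all 85 miRNAs. None of the 9 was 2-fold lower without scaling or on positive control features, beside 5 of all 85 in each. None was with the 75th percentile over all probes (7 of all 85), without the muscle miRNAs (8) or with normexp (8). With scaling on the median of probes 2 were, miR-141 and miR-96, beside 15 of all 85. In odd-numbered spots the same 2 were, beside 16. In the deposited values, after scaling, miR-141 and miR-182 were, 2 of 10 beside 15 of 104. Without scaling 5 of the 9 were above 0, while of all 85 the 20 lowest were below 0 and the rest above. The list's median was then 0.019, against 0.46 over all 85. miR-203 had the highest ratio of the 9, above all 7 of the others, and miR-205 had a ratio above 2 of those 7.

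The miR-200 family, which represses the ZEB factors and keeps cells epithelial, lay between the 2 members except for miR-141. Its scaled log2 ratios were -0.46 for miR-200a, -0.60 for miR-429, -0.61 for miR-200b, -0.90 for miR-200c and -1.26 for miR-141. From the family's median of -0.61, miR-203 differed by 0.38 and miR-205 by -0.43. These differences hold under any scaling by a common factor. The nearest family member to miR-203 was miR-200a, from which it differed by 0.23 (spot SE 0.050), and the nearest to miR-205 was miR-200c, from which it differed by -0.14 (spot SE 0.035). miR-96 at -1.20 and miR-183 at -1.01 come from 1 cluster. miR-205 differed from miR-96 by 0.16 (spot SE 0.062). From miR-183, read by 1 probe, it differed by -0.025 (spot SE 0.096), which leaves their order unsettled.

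**Figure D3:**
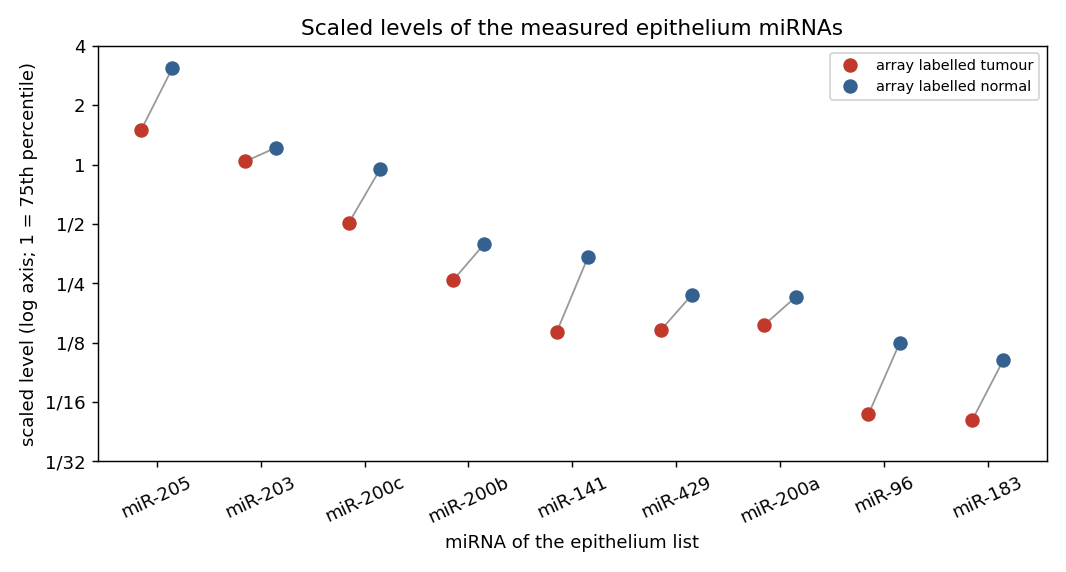
Scaled level of the 9 measured epithelium miRNAs on the tumour array (red, left of each pair) and the normal array (blue, right), on a log axis where 1 is each array's 75th percentile. The line of miR-203 is the flattest, with 1.04 on the tumour array and 1.22 on the normal array, while miR-205 had 1.50 on the tumour array and 3.09 on the normal array; heights of different miRNAs are signals of different probes.

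Among 10 miRNAs tied to the growth or differentiation of keratinocytes, 8 were measured on both arrays. After scaling 7 of them had ratios below 0, beside 53 of all 85. Of the 8, 3 (miR-21, miR-31 and miR-146a) were 2-fold or more lower on the tumour array, beside 19 or 22.4% of all 85. The median was -0.43, against -0.46 over all 85. Without scaling 5 were above 0, and the median was 0.49, against 0.46 over all 85. In that setting miR-21 and miR-31 alone were 2-fold lower, beside 5 of all 85, with miR-146a at -0.12. miR-24, which promotes keratinocyte differentiation, was at -0.22, within 0.011 of miR-203 (spot SE of the difference 0.022). let-7b was at -0.011, miR-125b-5p, a miRNA of mouse skin stem cells, at -0.10, and miR-99a at 0.71. miR-34a, which p63 represses in keratinocytes, was at -0.64. miR-146a, which dampens NF-kB signalling, was at -1.04, within 0.0012 of miR-205 (spot SE of the difference 0.053). miR-21 was at -3.26 and miR-31 at -3.93, both further below 0 than either member of the pair. miR-34c and miR-184 were detected on neither array.

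Across all 85 miRNAs, 16 had a lower ratio than miR-205 and 47 had a lower ratio than miR-203, so that 30 lay between the pair. The middle 50% of ratios ran from -0.88 to 0.63. The miRNAs with the ratios nearest to that of miR-203, outside the pair, were miR-24, miR-27b at -0.26, miR-98 at -0.30, miR-107 at -0.15 and let-7i at -0.35. Those nearest to miR-205 were miR-146a, miR-15b at -1.05, miR-183, miR-140* at -1.11 and miR-210 at -1.11. This likeness rests on 2 arrays, that is on 1 ratio per miRNA.

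**Figure D4:**
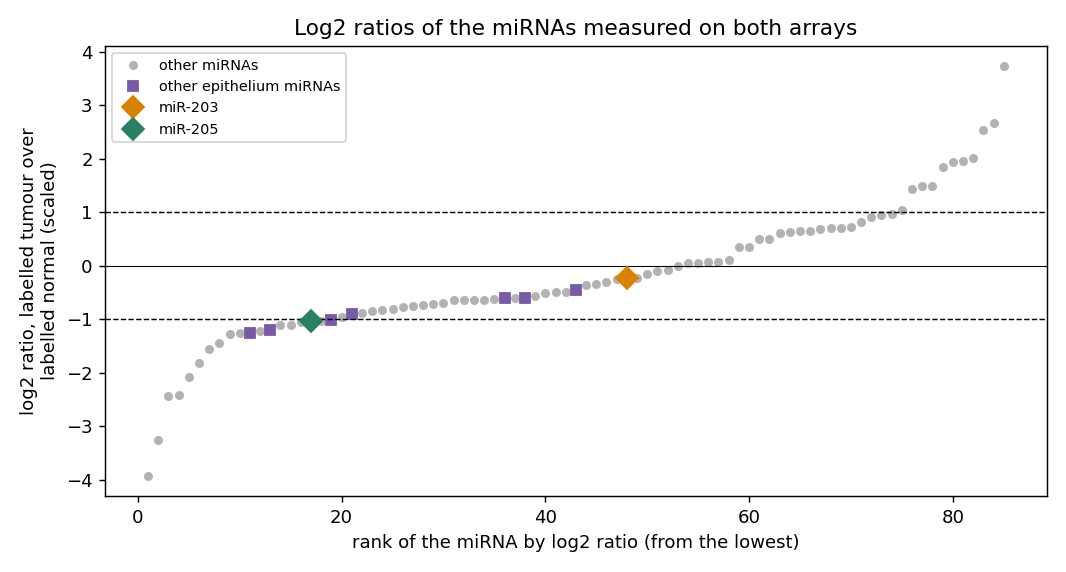
Scaled log2 ratios, labelled tumour over labelled normal, of the 85 miRNAs measured on both arrays, ordered from the lowest, with miR-203 (orange), miR-205 (green) and the 7 other measured epithelium miRNAs (purple); bars on the pair are spot SEs and are smaller than the symbols. miR-205 lies at -1.04, next to the dashed 2-fold line, and miR-203 at -0.24, above the other epithelium miRNAs.

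Markers of other cell types differed between the arrays in both directions. Of the 5 leukocyte miRNAs on the array 4 were measured, with scaled log2 ratios of -2.41 to 1.43. At least 2-fold lower were 3 (miR-223, miR-142-3p and miR-146a), beside 22.4% of all 85. The remaining 1, miR-150, was at least 2-fold higher, beside 12.9% of all 85. Without scaling the same 3 were below 0 and miR-150 was above. Their summed scaled level was 0.568 on the tumour array and 1.20 on the normal array, and their summed unscaled signal was 299 intensity units on the tumour array and 332 on the normal array. The member miR-142-5p was detected on neither array. Of the 5 stromal miRNAs 4 were measured, with scaled log2 ratios of -1.56 to 0.82 and a median of -1.02. After scaling 3 of the 4 were below 0, beside 53 of all 85, and 2 were at least 2-fold lower, beside 22.4% of all 85. Without scaling the median was -0.10, with 2 above 0 and 2 below, beside 20 of all 85 below. Their summed scaled level was 1.26 on the tumour array and 1.86 on the normal array, but their summed unscaled signal ran the other way, with 659.9 intensity units on the tumour array and 517 on the normal array. miR-145 was detected on neither array. After scaling miR-126 of endothelium was at 0.68 and miR-451 of red blood cells at 1.04, and without scaling at 1.60 and 1.96, while the other member of each of those lists was detected on neither array. None of the 5 nerve miRNAs was measured on both arrays. The part of these cell types in the values of miR-203 and miR-205 was not tested.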

How the data were processed

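Agilent miRNA arrays, read in Cy3, were used for total RNA of rat tongue, 1 array per group. Per the file headers, the deposited intensity values are spot signals from Feature Extraction 10.5.1.1 after background subtraction and spatial detrending, without normalization between arrays. The deposited value table held, for both members, the intensity of the software's total gene signal. The kit that the labels name for labelling amplifies messenger RNA; no source used here gives the step used for miRNA.

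Spots not marked as outliers were averaged per probe. Detection meant more than 50% of a probe's spots well above background. Signals were divided by the array's 75th percentile of probes that both arrays detected, floored at its lowest detected signal and put on the log2 scale. A miRNA's level and ratio are means over its probes detected on both arrays. Spot SEs come from the spread of spots, and the number of arrays limits the precision. A difference of 2-fold or more is a rule of size, not a test. Alternatives numbered 23, run with Python 3.11.15 and limma 3.58.1. The steps were tested on simulated arrays, both made from the normal array. That test took out the median shift of unchanged miRNAs before scoring, so it could not check the scaling between arrays.

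Named are the pair, all members of the epithelium and keratinocyte lists, the 5 nearest ratios to each member, and neighbours in rank. The members and lists were chosen with earlier results of these data known. Other miRNAs were named with their cell type lists.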

Additional observations from a re-analysis of the deposited data

How the results depend on the processing

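The difference between the log2 ratios of miR-203 and miR-205 could not move under 9 of the 23 alternatives by their construction, 6 of them scalings. Under the other 14, of which 2 gave 1 value, it ran from 0.71 to 0.86. Both ends lay further from the reported 0.80 than its spot SE of 0.028. They lay within the spot SD of 0.12, which is the spread of single spots and not the error of the reported mean. Without scaling, miR-203 was at 0.69, miR-205 at -0.12 and the epithelium median at 0.019, with 28 miRNAs at least 2-fold higher and 5 lower on the tumour array, against 11 and 19 as reported. With the 75th percentile over all probes these were 0.25, -0.55 and -0.42 (23 higher, 7 lower), on positive control features 0.68, -0.13 and 0.0094 (28 higher, 5 lower), and without the muscle miRNAs 0.078, -0.73 and -0.59 (18 higher, 8 lower). With scaling on the median of probes miR-203 was at -0.17, and 13 miRNAs were higher and 15 lower. The total gene signal and the deposited value table are not scaled between arrays, and gave 0.69 for miR-203 and -0.11 for miR-205. Divided by each array's 75th percentile over miRNAs, both gave -0.026, -0.83 and -0.77 (18 higher, 15 lower). Within the tumour array they put miR-203 over miR-205 at -0.46. With normexp, offset 50, miR-205 was at -0.91, miR-203 over miR-205 within the normal array was -1.18, and 11 miRNAs in place of 30 were at least 2-fold apart. The 4 epithelium miRNAs that were 2-fold lower became 0 without scaling, with the 75th percentile over all probes or without the muscle miRNAs, with normexp and on positive control features. The median log2 ratio of all 85 was -0.46 as reported and 0.46 without scaling, so signs near 0 are relative to the scaling.

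The log2 difference of miR-203 over miR-205 within an array depended on the probes. It was -0.34 within the tumour array and -1.13 within the normal array with the brightest probe alone. Without the shorter miR-203 probe it was 0.15 on the tumour array and -0.66 on the normal array, and without the longer one -1.22 on the tumour array and -2.02 on the normal array. Without the shorter miR-205 probe it was -1.02 on the tumour array and -1.81 on the normal array, and without the longer one -0.051 on the tumour array and -0.87 on the normal array. miR-205 was at least 2-fold lower in 14 of 23 alternatives and below 0 in all 23, and miR-203 was above 0 in 4. The 23 are not separate checks. Leaving out a miR-203 probe, the median over probes and no filter on dim probes could not move miR-205 from -1.04. The brightest probe alone repeats the setting without the shorter miR-205 probe (-1.02), and the deposited value table repeats the total gene signal. Leaving out the last columns of the array was chosen after seeing the data. No paired analysis was possible because each group has 1 array.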

Other observations

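Spots of miR-205 were less even on the normal array, and several of the dim ones lay near 1 edge. Of its 20 spots, 4 lie in the last 10 of the array's 82 columns. Against the median of their own probe these 4 were at a median of -2.96% on the tumour array and -12.8% on the normal array. Of the spots of miR-203, 2 lie in those columns, at -0.291% on the tumour array and -2.21% on the normal array. Over all probes with a median above 200 intensity units and all spots well above background, spots in those columns were at -1.17% on the tumour array (78 spots) and -4.85% on the normal array (40 spots). With those columns left out of the whole array, a choice made after seeing the data, miR-205 was at -1.03 on the log2 scale, miR-203 at -0.20 and their difference at 0.83.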
